A study of Homo sapiens with 24 samples.

Results

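MAP1A, MYO7A and ADD2 are 3 genes of the cytoskeleton, 3 of the 21831 genes listed for each library. They were chosen from these same data for the size of their differences between cells given dimethyl fumarate (DMF) and control cells, so their levels and fold changes are given as a description, with no test. HBL-1 is a human lymphoma cell line of the activated B cell-like type of diffuse large B cell lymphoma, and DMF is an electrophilic fumaric acid ester used as a medicine. The tested cultures received 20 µM DMF dissolved in DMSO for 6, 12, 24 or 48 h, and the control cultures received DMSO alone for the same times. Each of the 8 groups had 3 libraries of total RNA. All groups were the same line, with no genetic change named, in the same serum-containing medium with antibiotics, and each time had a control of its own. The labels do not say whether the 3 replicates of a group were separate cultures, so every p-value below measures only the spread between these libraries, which may be technical.

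The MAP1A product is a large protein that is cut into a heavy and a light chain, binds along microtubules and stabilises them, and is best known from the dendrites and axons of neurons. MYO7A encodes myosin VIIa, an unconventional myosin that walks on actin filaments and holds together the stereocilia of inner ear hair cells; loss of its function causes Usher syndrome. ADD2 encodes β-adducin, which pairs with other adducins, caps the fast-growing ends of actin filaments and recruits spectrin to them in the membrane skeleton, above all in red cells and the brain. None of the 3 is a classical gene of B cells. DMF reacts with cysteines of KEAP1, which frees the transcription factor NRF2 to bind antioxidant response elements; activated B cell-like lymphomas also depend on NF-kB signalling.

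Both promoter windows of MAP1A are shown because it is the one of the 3 genes that stood higher after DMF, and because each window holds 1 match to a motif searched. MAP1A lies on the plus strand of chromosome 15 at 43510958 to 43531620 in GRCh38, MYO7A on the plus strand of chromosome 11 at 77128264 to 77215241, and ADD2 on the minus strand of chromosome 2 at 70607618 to 70768225. The windows run from 250 bases before to 50 bases after a start annotated by RefSeq in GRCh38.p14, are read 5′ to 3′ on the plus strand, and carry the matched bases in capitals.
MAP1A, upstream start, chr15:43510704-43511003: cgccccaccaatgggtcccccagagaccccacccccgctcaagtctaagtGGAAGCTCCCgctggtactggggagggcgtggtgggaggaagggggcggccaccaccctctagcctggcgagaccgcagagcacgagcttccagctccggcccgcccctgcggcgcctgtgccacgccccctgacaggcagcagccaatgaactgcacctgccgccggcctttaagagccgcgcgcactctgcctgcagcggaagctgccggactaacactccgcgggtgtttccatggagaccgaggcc
MAP1A, downstream start, chr15:43517358-43517657: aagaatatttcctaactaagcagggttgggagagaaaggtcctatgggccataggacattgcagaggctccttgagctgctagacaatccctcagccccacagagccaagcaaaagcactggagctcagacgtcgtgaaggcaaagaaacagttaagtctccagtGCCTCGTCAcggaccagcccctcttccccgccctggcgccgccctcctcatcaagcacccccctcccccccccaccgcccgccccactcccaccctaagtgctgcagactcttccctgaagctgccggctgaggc

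The only MAP1A transcript in the deposited tables starts at base 43517625 in the GENCODE annotation, inside the downstream window. The capitals there are a match, on the minus strand, to the core of the antioxidant response element, TGACNNNGC, and begin 85 bases before the annotated start of that window. The capitals of the upstream window are a match to the NF-kB consensus, on the minus strand, 200 bases before its start. Over 35116 RefSeq windows of the same 300 bases, 13.3% held the antioxidant response element core on either strand and 11.3% the NF-kB consensus. The third motif searched, the CHOP-ATF4 element TGATGNAA, was in 3.62% of the windows and in neither MAP1A window. Both windows of ADD2, with starts on the minus strand, held none of the 3 motifs. These matches describe the letters only; binding was not measured. MYO7A is named without a sequence.

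Depth was even apart from 1 library: totals ran between 23097873 and 40906596 expected counts in 23 libraries, and DMF 48 h replicate 1 held 2870751. In both replicate 3 libraries of 12 h the reads came from shorter transcripts, with a count-weighted effective length of 2121 bases in the DMF and 1902 bases in the control library, against 2850 to 3157 bases in the other 22. They are shown for every member. Member fold changes and counts of called genes are given with and without them. Named calls are from the fit of all 24 libraries unless stated otherwise. Shares of separated genes and transcript lengths at 12 h include them. B cell markers were present in all 24 libraries: MS4A1 stood at 452 to 925 CPM (counts per 1000000 counts of the library, after TMM scaling), CD79A at 849 to 2760 CPM, PAX5 at 125 to 987 CPM and BANK1 at 22 to 56.4 CPM. Several defining markers of the tissues best known for these 3 genes were absent, and others were not. The 6 neuron markers summed to at most 0.189 CPM in DMF and 0.208 CPM in control libraries, with SNAP25 and NEFL at 0 in all 24. The erythroid markers HBB and ALAS2 reached at most 1 count and GATA1 at most 2 counts in any library, while HBA1 reached 1.89 CPM (43 counts) and EPOR stood at 2.72 to 9.97 CPM over the 24 libraries. MITF, TYR and RPE65 of the pigment and sensory epithelium list were at 0 throughout, and the 6 markers of that list, PMEL and GFI1 included, summed to 13.1 to 24.8 CPM in DMF and 9.92 to 21.4 CPM in control libraries. The 4 T cell markers summed to at most 0.688 CPM in DMF and 0.948 CPM in control libraries, with CD3G at 0. In bulk RNA, fewer cells that hold a transcript and less of it per cell cannot be told apart.

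MAP1A was higher in DMF cells at every time, and its ranges did not overlap. At 6 h it stood at 10.5, 11.4 and 9.56 CPM in the DMF libraries, against 2.13, 1.82 and 2.35 CPM in the controls. At 12 h the DMF libraries held 33.7, 31.6 and 16.4 CPM, against 1.98, 2.50 and 1.37 CPM in the controls. The third value of each trio at 12 h is the replicate 3 library with the shorter transcripts; in both arms it was the lowest of the 3, and the DMF-to-control ratio between libraries of the same number was 17, 12.6 and 12. At 24 h the values were 9.53, 12.0 and 9.77 CPM in DMF, against 1.30, 1.17 and 1.22 CPM in control libraries. At 48 h they were 11.9, 17.3 and 17.6 CPM in DMF, against 0.327, 0.320 and 0.656 CPM in control libraries. The lowest DMF library at 48 h is the shallow one, where 11.9 CPM rests on 39 counts; the 48 h controls held 10, 11 and 25 counts.

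For fold changes, ± gives an approximate standard error (SE), worked back from the F statistic of the fit. The fold changes of MAP1A, on the log2 scale, were 2.31 ± 0.27 at 6 h, 3.79 ± 0.28 at 12 h, 3.08 ± 0.28 at 24 h and 5.16 ± 0.32 at 48 h. These are 4.96-fold, 13.8-fold, 8.44-fold and 35.8-fold higher levels after DMF. Among the 13419 genes with enough counts to fit, MAP1A ranked 39, 9, 20 and 6 from the top at these times; among genes averaging at least 1 CPM in DMF or control libraries of that time it ranked 19 of 11438, 3 of 11376, 6 of 11541 and 2 of 11798. All 3 DMF libraries lay above all 3 controls for 30.2%, 7.89%, 32.1% and 30.6% of the 13419 genes at 6, 12, 24 and 48 h, so outside 12 h the separation by itself is common and the size of the difference is what placed MAP1A near the top. Without both replicate 3 libraries of 12 h the fold changes were 2.30, 3.85, 3.08 and 5.24 on the log2 scale. Their SE were then smaller at every time, at 0.14, 0.15, 0.15 and 0.18.

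The differing ratios of MAP1A involved both arms. Its DMF mean was 10.5 ± 0.901 CPM at 6 h, 27.2 ± 9.45 at 12 h, 10.4 ± 1.36 at 24 h and 15.6 ± 3.24 at 48 h (SD, n = 3 each). Its control mean was 2.10 ± 0.265 CPM at 6 h, 1.95 ± 0.567 at 12 h, 1.23 ± 0.0664 at 24 h and 0.434 ± 0.192 at 48 h (SD, n = 3 each). The DMF level thus stood at 2.60, 0.997 and 1.49 times its own 6 h level at 12, 24 and 48 h, while the control level stood at 0.929, 0.587 and 0.207 times. Ordered by mean, the 8 groups ran control 48 h, control 24 h, control 12 h, control 6 h, DMF 24 h, DMF 6 h, DMF 48 h and DMF 12 h. Neighbours whose libraries overlapped were control 12 h with control 6 h, DMF 24 h with DMF 6 h, and DMF 48 h with DMF 12 h. Differences between times were not tested.

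**Figure D1:**
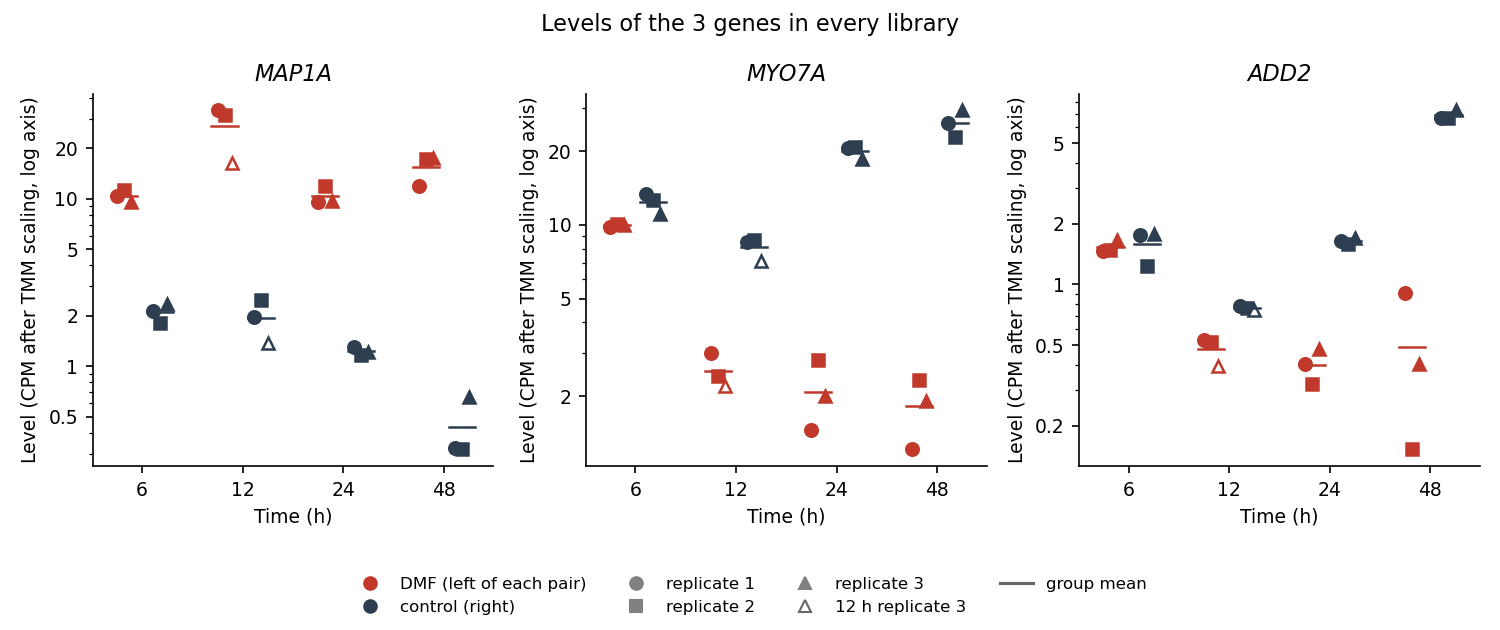
Level of MAP1A, MYO7A and ADD2 in each of the 24 libraries, in CPM after TMM scaling on a log axis, by time in hours; DMF libraries are left of the controls, bars are group means, and open triangles are the replicate 3 libraries of 12 h. MAP1A was above its controls at every time, while MYO7A and ADD2 were far below theirs at 24 and 48 h, when their control levels were at or above those of 6 h.

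MYO7A moved the other way and later. At 6 h the DMF libraries held 9.80, 10.1 and 10 CPM, against 13.4, 12.6 and 11.1 CPM in the controls; the groups did not overlap, but their nearest libraries, at 10.1 and 11.1 CPM, lay close. At 12 h MYO7A stood at 3, 2.41 and 2.19 CPM in DMF, against 8.49, 8.72 and 7.10 CPM in control libraries. At 24 h it stood at 1.45, 2.82 and 2 CPM in DMF, against 20.6, 20.8 and 18.6 CPM in control libraries. By then the highest DMF library was below every control library of any time. At 48 h the DMF libraries held 1.22, 2.32 and 1.91 CPM, against 26.0, 22.8 and 29.4 CPM in the controls. The value of 1.22 CPM is from the shallow library and rests on 4 counts, for which an exact 95% Poisson interval, covering counting error only, is 0.331 to 3.11 CPM.

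In the fit the log2 fold changes of MYO7A were -0.31 ± 0.18 at 6 h, -1.67 ± 0.19 at 12 h, -3.25 ± 0.20 at 24 h and -3.70 ± 0.21 at 48 h (± SE). Its level was thus 1.24-fold, 3.18-fold, 9.54-fold and 13-fold lower after DMF. Counted from the lowest fold change it ranked 2671, 267, 13 and 30 of the 13419 genes, and 1950, 104, 2 and 13 among those averaging at least 1 CPM in either arm. All 3 DMF libraries lay below all 3 controls for 29.6%, 8.82%, 31.8% and 30.2% of the 13419 genes at 6, 12, 24 and 48 h, so at 6 h neither the separation nor the size set MYO7A apart. The values without both replicate 3 libraries of 12 h are -0.31, -1.67, -3.24 and -3.64, with SE of 0.12, 0.18, 0.14 and 0.15.

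For MYO7A the DMF level was low from 12 h on, and the control level was the part that kept moving. Its DMF mean was 9.96 ± 0.154 CPM at 6 h, 2.53 ± 0.415 at 12 h, 2.09 ± 0.688 at 24 h and 1.82 ± 0.560 at 48 h (SD, n = 3 each). Its control mean was 12.4 ± 1.18 CPM at 6 h, 8.10 ± 0.877 at 12 h, 20.0 ± 1.19 at 24 h and 26.1 ± 3.28 at 48 h (SD, n = 3 each). Against their own 6 h levels, DMF cells stood at 0.254, 0.209 and 0.182 times at 12, 24 and 48 h, and control cells at 0.654, 1.61 and 2.11 times. Ordered by mean, the groups ran DMF 48 h, DMF 24 h, DMF 12 h, control 12 h, DMF 6 h, control 6 h, control 24 h and control 48 h. The first 3 of these overlapped in their libraries, and no other neighbours did.

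ADD2 was the latest of the 3, rests on the fewest counts, and showed no separation at 6 h. At that time the DMF libraries held 1.46, 1.49 and 1.67 CPM, against 1.77, 1.23 and 1.78 CPM in the controls, and the ranges overlapped. At 12 h the DMF libraries held 0.530, 0.519 and 0.395 CPM, against 0.786, 0.768 and 0.747 CPM in the controls. These rest on 20, 20 and 9 counts in DMF, against 25, 31 and 18 counts in control libraries, so the ranges were apart but the counts were few. At 24 h ADD2 stood at 0.403, 0.321 and 0.479 CPM in DMF, against 1.64, 1.59 and 1.70 CPM in control libraries. At 48 h it stood at 0.912, 0.153 and 0.404 CPM in DMF, against 6.63, 6.70 and 7.27 CPM in control libraries. The spread among the 48 h DMF libraries covers counts of 3, 6 and 15, and the 3 counts of the shallow library allow 0.188 to 2.67 CPM (exact Poisson, 95%); that upper bound is still below each 48 h control.

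The log2 fold changes of ADD2 were -0.06 ± 0.23 at 6 h, -0.65 ± 0.27 at 12 h, -2.03 ± 0.26 at 24 h and -4.41 ± 0.30 at 48 h (± SE), so that its level was 1.04-fold, 1.57-fold, 4.08-fold and 21.3-fold lower after DMF. From the lowest fold change its rank was 5813, 1919, 63 and 18 of 13419 genes, and 4784, 25 and 7 at 6, 24 and 48 h among those averaging at least 1 CPM in either arm, which ADD2 did not at 12 h. Leaving out both replicate 3 libraries of 12 h gave -0.07, -0.56, -2.03 and -4.47, with SE of 0.19, 0.31, 0.23 and 0.24. ADD2 means were 1.54 ± 0.111, 0.481 ± 0.0753, 0.401 ± 0.0791 and 0.490 ± 0.387 CPM in DMF at 6, 12, 24 and 48 h (SD, n = 3 each). In control cells they were 1.59 ± 0.313, 0.767 ± 0.0194, 1.64 ± 0.0542 and 6.87 ± 0.348 CPM at the same times (SD, n = 3 each). The DMF level was 0.313, 0.261 and 0.318 times its 6 h value at 12, 24 and 48 h, and the control level was 0.482, 1.03 and 4.31 times. The 48 h ratio thus sets a DMF level near those of 12 and 24 h against a control level above every earlier control library. Ordered by mean, the groups ran DMF 24 h, DMF 12 h, DMF 48 h, control 12 h, DMF 6 h, control 6 h, control 24 h and control 48 h. Among the first 4 each neighbouring pair overlapped, as did DMF 6 h, control 6 h and control 24 h with their neighbours, and control 48 h stood alone.

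**Figure D2:**
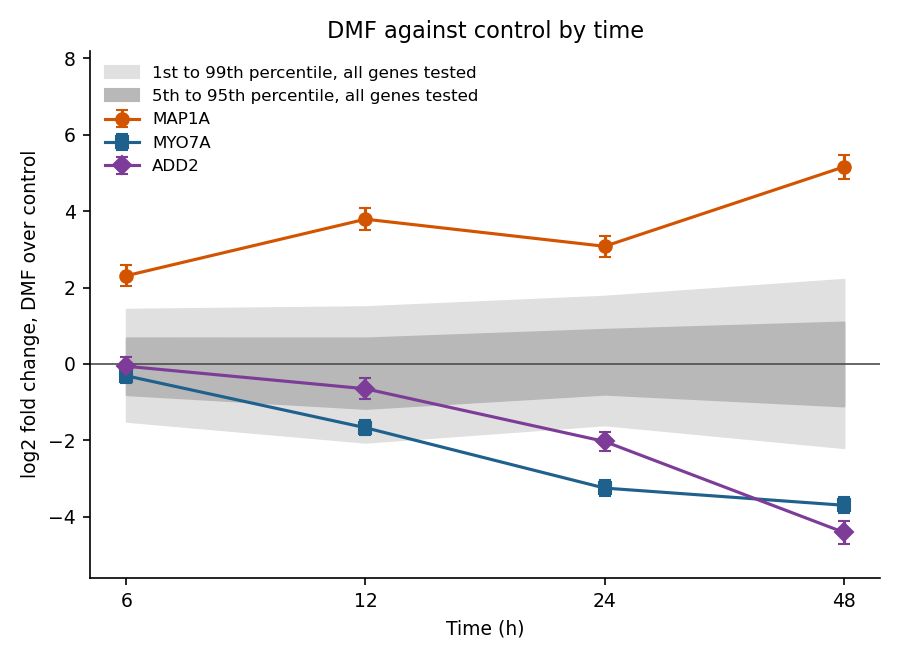
Log2 fold change of DMF against control for MAP1A, MYO7A and ADD2 by time in hours. Bars are approximate standard errors, worked back from the F statistic of the fit. The dark and light grey bands hold the 5th to 95th and the 1st to 99th percentiles of all 13419 genes fitted. MAP1A lay above the 99th percentile at all 4 times, while MYO7A and ADD2 lay inside the 5th to 95th percentiles at 6 h and under the 1st percentile at 24 and 48 h.

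Per length, MAP1A had the highest mean of the 3 genes in DMF cells at 48 h and the lowest in control cells, while MYO7A was above ADD2 in both arms. In the authors' deposited TPM, which divides each gene's counts by its length before scaling to library size, DMF cells at 48 h averaged 2.80 TPM of MAP1A, 0.5 TPM of MYO7A and 0.247 TPM of ADD2. Control cells at 48 h averaged 6.02 TPM of MYO7A, 2.59 TPM of ADD2 and 0.0667 TPM of MAP1A. At 6 h the averages in DMF cells were 2.16 TPM of MYO7A, 1.51 TPM of MAP1A and 0.543 TPM of ADD2, and in control cells 2.96 TPM of MYO7A, 0.653 TPM of ADD2 and 0.337 TPM of MAP1A. All 3 genes were thus at levels of a few TPM or less in these groups. Over the 22 libraries other than the replicate 3 libraries of 12 h, Pearson's r in log2 CPM was -0.843 between MAP1A and MYO7A, -0.807 between MAP1A and ADD2 and 0.842 between MYO7A and ADD2. Over all 24 it was -0.839, -0.787 and 0.846. These describe libraries that share groups, depth and scaling, and the 3 genes were chosen for differences between those groups.

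A second measure in the tables, not used in choosing the genes, is the transcript length of each gene weighted by the estimated abundance of its transcripts. ADD2 is listed with 6 transcripts, of which 5 could be paired with the annotation, at 2332, 2654, 3741, 3776 and 9267 bases. At 12 h the weighted length of ADD2 was 3741 to 4058 bases in DMF and 4174 to 4715 bases in control libraries, and at 48 h it was 3719 to 3893 bases in DMF and 4297 to 4322 bases in control libraries. In both cases all DMF libraries were below all controls, which held for 3.22% of 10778 genes with a varying length at 12 h and for 10.2% at 48 h. At 6 h the ranges of ADD2 overlapped, at 4281 to 4507 bases in DMF and 4090 to 4369 bases in control libraries; at that time 9.58% of genes had all DMF libraries below all controls. At 24 h the ranges overlapped by a few bases, at 3732 to 4238 bases in DMF and 4225 to 4764 bases in control libraries. The DMF values at 12, 24 and 48 h rest on 3 to 20 counts a library, spread over 6 transcripts, and no test was made.

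MYO7A, listed with 21 transcripts, showed less. Its weighted length was 6761 to 6839 bases in DMF and 6852 to 7013 bases in control libraries at 24 h, a gap that 9.58% of genes also showed in that direction, and the ranges overlapped at 6, 12 and 48 h. The value of 5642 bases in the shallow DMF library of 48 h rests on 4 counts. MAP1A is listed with 1 transcript and has a fixed length of 10275 bases. The annotation places the antisense gene AC005234.1 inside ADD2, at 70687142 to 70691824 on the plus strand; it has no value here, and whether the counting used strand is not given in the sources used here.

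**Figure D3:**
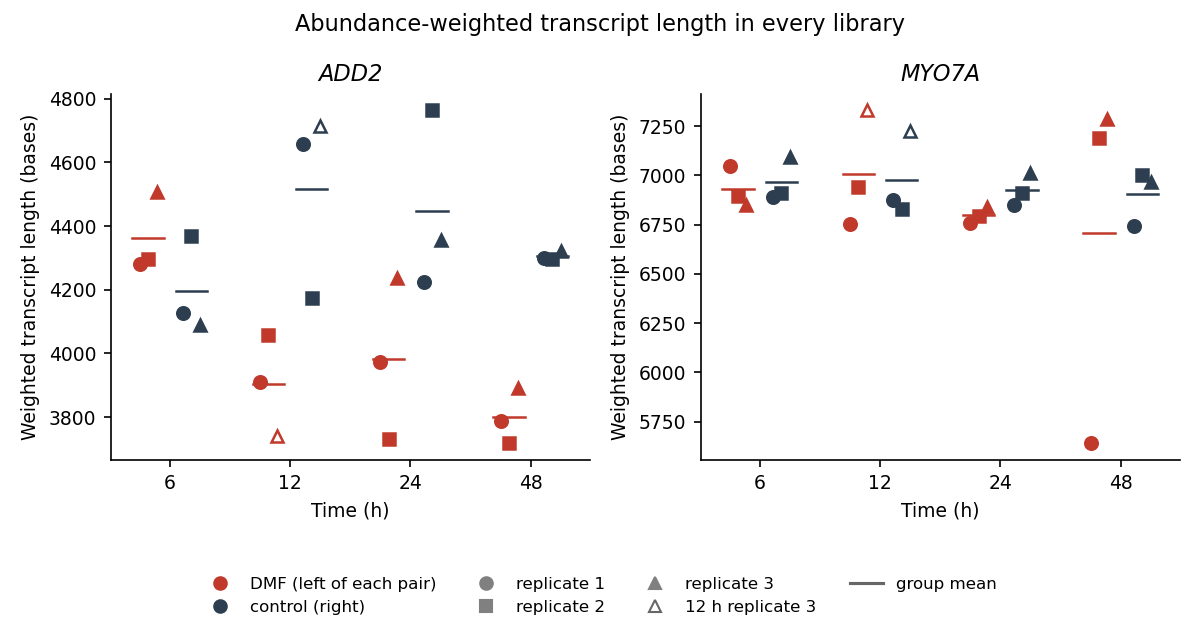
Abundance-weighted transcript length of ADD2 and MYO7A in bases in each library, by time in hours, with DMF libraries left of the controls and bars at group means. ADD2 lengths were lower in all DMF libraries than in all controls at 12 and 48 h; the shallow DMF library of 48 h rests on 3 counts for ADD2 and 4 for MYO7A.

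The close relatives of the 3 genes did not all share their pattern. MAP1B, the nearest relative of MAP1A and likewise a microtubule stabiliser of neurons, was barely present. At 48 h it stood at 0.473 ± 0.298 CPM in DMF, against 0.0608 ± 0.0360 CPM in control libraries (SD, n = 3 each). The DMF mean of MAP1B was 0.491 CPM at 24 h, and none of the remaining groups averaged above 0.251 CPM. MAP1B may thus have passed the filter on low counts through the DMF groups of 24 and 48 h, where it is then tested. The adjusted p of MAP1B at those times are therefore given as a description. Its log2 fold change was 3.11 at 48 h (adjusted p = 0.00038, quasi-likelihood test of edgeR, adjusted by Benjamini-Hochberg over the 13419 genes), 1.47 at 24 h (adjusted p = 0.035 by that test), 1.35 at 12 h (adjusted p = 0.13) and -1.11 at 6 h (adjusted p = 0.26). The call at 24 h was lost without any 1 of 5 libraries, among them all 3 DMF libraries of 24 h and replicates 1 and 3 of its controls. It was also lost with no filter on low counts and on log2(TPM + 1). Its adjusted p by edgeR was 0.022 to 0.17 with 1 library left out. The call at 48 h held with no filter on low counts. MAP1S, the short and widely expressed relative, had log2 fold changes of 0.05, 0.09, 0.14 and 0.25 at 6, 12, 24 and 48 h (adjusted p = 0.97, 0.89, 0.84 and 0.63 by edgeR). Without both replicate 3 libraries of 12 h its values were 0.05, 0.42, 0.14 and 0.27 (adjusted p = 0.45, 2e-06, 0.017 and 0.00011), so the 3 later times then passed. With the replicate number as a block within 12 h it had 0.21 at 12 h and 0.26 at 48 h (adjusted p = 0.03 and 0.014).

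ADD1, the widely expressed α-adducin that partners β-adducin, was at 159 ± 9.44 CPM in DMF and 135 ± 2.61 CPM in control libraries at 48 h (SD, n = 3 each), a log2 difference of 0.24 (adjusted p = 0.039 by edgeR). This call was lost without any 1 of 7 libraries, among them all 3 controls of 48 h, DMF 48 h replicates 2 and 3 and control 6 h replicates 1 and 2, with adjusted p up to 0.12, and on log2(TPM + 1). At 6, 12 and 24 h ADD1 had log2 fold changes of -0.06, 0.05 and 0.13 (adjusted p = 0.84, 0.75 and 0.37 by edgeR). ADD3, γ-adducin, had -0.13, -0.32, -0.26 and -0.78 at 6, 12, 24 and 48 h (adjusted p = 0.93, 0.60, 0.71 and 0.10 by edgeR). Without both replicate 3 libraries of 12 h ADD3 had -0.14, -0.42, -0.26 and -0.73 (adjusted p = 0.081, 3e-05, 0.00026 and 4.2e-11), the same side of its controls as ADD2. With the block within 12 h the adjusted p at 12, 24 and 48 h were 0.014, 0.0088 and 8e-08, and that of ADD1 at 24 h was 0.025. MYO7B, the intestinal relative of myosin VIIa, reached at most 13 counts in any library, with a median of 3.5, and was not tested in the fit of 24 libraries. It entered the fit of 22, where the filter on low counts asks for fewer libraries because the 12 h groups hold 2. Its log2 fold changes there were 0.58, -1.41, -3.44 and -0.61, given as a description because a few libraries with the most counts decided its entry.

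The genes around these 3 were then taken from 5 lists, and at each time at most 50% of the tested members of a list passed the test. Across all 13419 genes edgeR called 10.6% at 6 h, 17.3% at 12 h, 14.4% at 24 h and 25.8% at 48 h (adjusted p under 0.05). Higher in DMF were 5.03%, 7.37%, 7.81% and 13.3%, and lower were 5.59%, 9.95%, 6.60% and 12.5%. Below, rose and fell mean called higher or lower in DMF than in the controls of the same time. They do not mean a change over time. The fit of the 22 libraries other than the replicate 3 libraries of 12 h called more genes of the lists, as it did of all genes: 23.8%, 24.1%, 29.5% and 33.6% of 13606 genes were then higher and 23.4%, 23.8%, 27.9% and 30.9% lower. At 12 h the replicate 3 libraries of both arms deviated together. With the replicate number as a block within 12 h the fit of 24 libraries had 20.2%, 25.4%, 26.4% and 30.6% of 13419 genes higher. Lower in that fit were 20.5%, 26.5%, 25.8% and 29.4%. The members of a list are not independent of each other, and with 10 to 27 tested members a share moves by several points for each gene. The lists were also chosen with earlier results of these data known, so their shares beside those of all genes are a description only. Where a named call is lost without 1 library or on log2(TPM + 1), this is said. Of the 73 calls named by the rule, 45 held without each single library and 25 held on log2(TPM + 1). The edgeR fit of only the 2 groups of 12 h, without the block, called no gene. Every named call of 12 h was thus lost in that fit.

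Microtubule-associated proteins beside MAP1A numbered 30, of which 23 were tested. At 6, 12, 24 and 48 h 2, 3, 4 and 5 of the 23 rose and 0, 0, 1 and 1 fell, with median log2 fold changes of 0.10, 0.07, 0.06 and 0.16, against 0.00, -0.05, 0.01 and 0.02 over all genes tested. The shares called, 8.70%, 13%, 21.7% and 26.1%, stand beside backgrounds of 10.6%, 17.3%, 14.4% and 25.8%. The 5 calls at 24 h became 2 without control 24 h replicate 1 and 8 without control 12 h replicate 3. In the fit of 22 libraries 9, 8, 9 and 10 of 24 were higher and 4, 3, 10 and 6 lower. With the block, 6, 9, 6 and 10 of the 23 were higher and 4, 2, 9 and 5 lower. Of all genes, 23.8% to 33.6% were higher and 23.4% to 30.9% lower with 22 libraries, depending on the time. The block gave 20.2% to 30.6% of all genes higher and 20.5% to 29.4% lower. DCLK2, a kinase with microtubule-binding doublecortin domains, rose to 48.9 ± 0.435 CPM in DMF at 48 h, against 15.5 ± 1.93 CPM in control libraries (log2 fold change 1.66, adjusted p = 9.4e-08 by edgeR). It also rose at 12 and 24 h, by 0.67 and 1.03 (adjusted p = 0.0023 and 5.3e-05 by edgeR), calls that did not hold on log2(TPM + 1). MAPRE3, the plus-end protein EB3, rose at 6, 12, 24 and 48 h, by 1.2, 1.42, 1.56 and 0.9 (adjusted p = 0.0065, 0.00051, 2e-04 and 0.0098 by edgeR). Its 6 h call was lost on log2(TPM + 1). Its 48 h call, with overlapping ranges, was not checked with single libraries left out. At 24 h MAPRE3 stood at 3.81 ± 0.546 CPM in DMF and 1.29 ± 0.150 CPM in control libraries. MAP7D1, of the MAP7 family that recruits kinesin-1, was higher in DMF at 48 h, at 94.2 ± 2.15 CPM against 58.7 ± 5.06 CPM in control libraries (0.68, adjusted p = 0.0011 by edgeR). STMN1, the tubulin-sequestering stathmin, was lower in DMF at 48 h, at 351 ± 10.1 CPM against 465 ± 28.7 CPM in control libraries (-0.40, adjusted p = 0.0039 by edgeR). That call was lost on log2(TPM + 1). At 6 h STMN1 stood at 307 CPM in DMF and 320 CPM in control libraries, so both arms were higher at 48 h.

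Of 19 tubulins 16 were tested, and rising and falling members were mixed. At 6, 12, 24 and 48 h 2, 2, 1 and 3 rose and 1, 2, 2 and 4 fell, with medians of 0.00, -0.06, 0.07 and 0.16, against 0.00, -0.05, 0.01 and 0.02 over all genes tested. The shares called were 18.8%, 25%, 18.8% and 43.8%, against 10.6%, 17.3%, 14.4% and 25.8% of all genes tested. With 22 libraries 4, 3, 6 and 8 were higher and 6, 3, 5 and 6 lower. With the block, 3, 2, 6 and 8 were higher and 6, 5, 4 and 5 lower. The shares of all genes by time were 23.8% to 33.6% higher and 23.4% to 30.9% lower with 22 libraries. They were 20.2% to 30.6% higher and 20.5% to 29.4% lower with the block. TUBB, the main β-tubulin of dividing cells, fell at 12, 24 and 48 h by 0.43, 0.71 and 0.89 on the log2 scale, to 815 ± 9.29 CPM in DMF at 48 h, against 1510 ± 56.5 CPM in control libraries (adjusted p = 0.0012, 8.6e-06 and 2.1e-07 by edgeR; the 12 h call was lost on log2(TPM + 1)). TUBA1A, an α-tubulin, was lower in DMF at 12 h (-0.81, adjusted p = 0.00028 by edgeR). Its 6 h call (-0.42, adjusted p = 0.046 by edgeR) was lost without any 1 of 21 libraries and on log2(TPM + 1). At 48 h TUBA1A was lower again, at 14.5 ± 0.508 CPM in DMF against 37.0 ± 3.32 CPM in control libraries (-1.35, adjusted p = 5.5e-07 by edgeR). The neuronal β-tubulin TUBB3 was lower by 0.96 at that time (adjusted p = 4.7e-05 by edgeR), at 13.3 CPM in DMF and 25.3 CPM in control libraries. In the other direction, TUBB2A, a further β-tubulin, was higher in DMF at 48 h, at 13.4 ± 0.547 CPM against 5.55 ± 0.806 CPM in control libraries (1.26, adjusted p = 0.00058 by edgeR). At 6 h TUBB2A stood at 13.8 CPM in both arms. TUBA1A, TUBB2A and other tubulins have near-identical copies, so the division of their reads by the authors' counting is uncertain.

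Of 23 unconventional myosins other than MYO7A 21 were tested, and 1, 0, 1 and 1 rose while 3, 5, 3 and 3 fell at 6, 12, 24 and 48 h. Their median log2 fold changes were -0.08, -0.22, -0.03 and 0.10, against 0.00, -0.05, 0.01 and 0.02 over all genes tested. The shares called were 19%, 23.8%, 19% and 19%, against 10.6%, 17.3%, 14.4% and 25.8% of all genes tested. The fit of 22 libraries had 3, 2, 4 and 5 of 22 higher and 6, 8, 8 and 6 lower. With the block, 3, 1, 4 and 5 of the 21 were higher and 6, 9, 7 and 6 lower. Among all genes the 22 libraries had 23.8% to 33.6% higher and 23.4% to 30.9% lower, depending on the time. For the block these shares were 20.2% to 30.6% and 20.5% to 29.4%. MYO3A, a class III myosin of hair cell stereocilia like MYO7A in its site of action, fell at 12, 24 and 48 h by 1.74, 1.66 and 1.90 on the log2 scale (adjusted p = 0.00033, 0.00051 and 0.00015 by edgeR). Its levels were low, 0.653 ± 0.224 CPM in DMF and 2.10 ± 0.101 CPM in control libraries at 48 h. MYO1C, a class I myosin that links membranes to actin, fell at 6, 12 and 48 h by 0.40, 0.37 and 0.32 (adjusted p = 0.00057, 0.00075 and 0.0015 by edgeR), calls that did not hold on log2(TPM + 1). MYO1E, another class I myosin, rose to 59.7 ± 1.22 CPM in DMF at 48 h, against 32.4 ± 0.845 CPM in control libraries (0.88, adjusted p = 0.017 by edgeR).

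**Figure D4:**
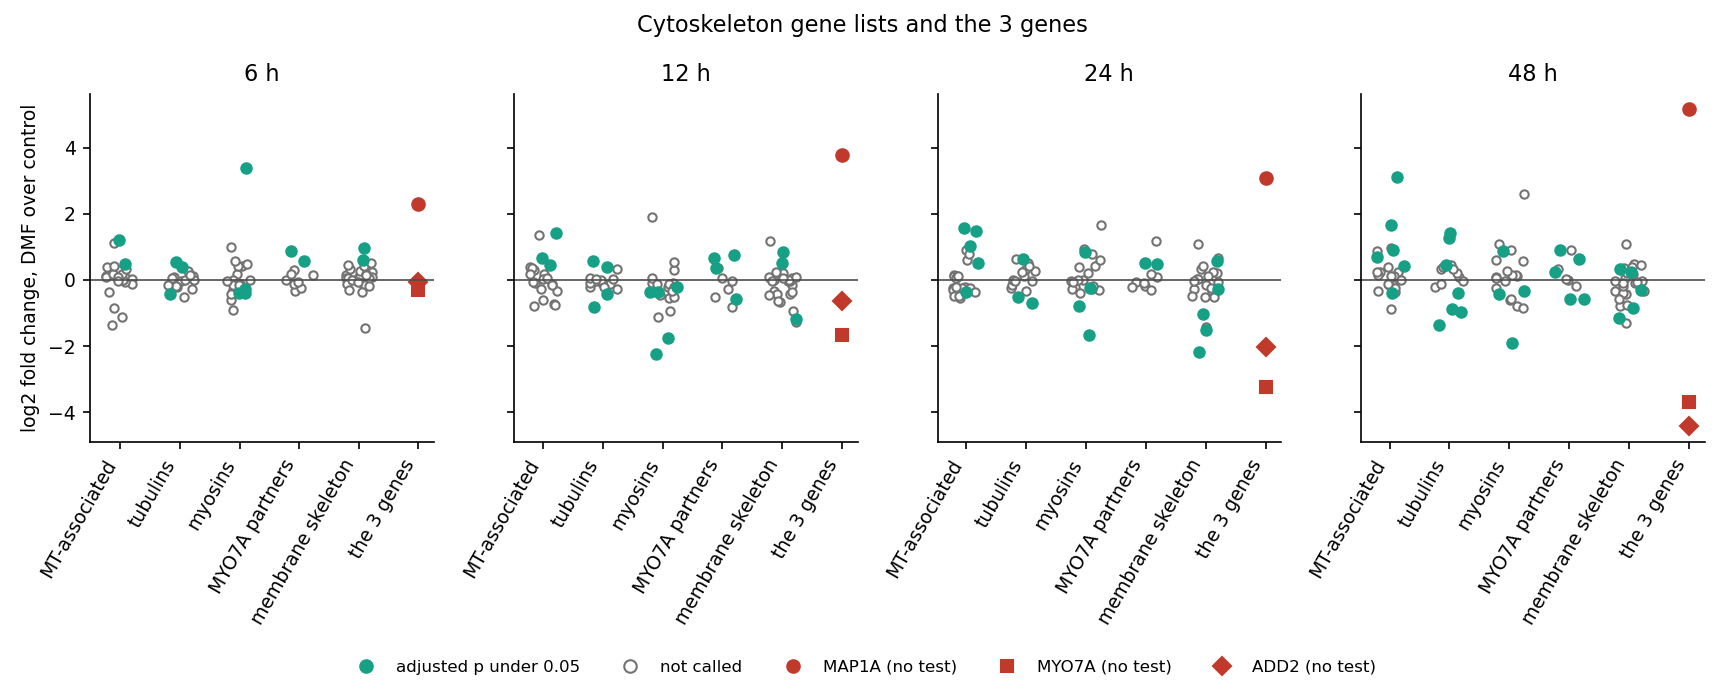
Log2 fold change of DMF against control for each tested gene of the 5 lists, by time in hours, with filled points for genes called by edgeR at an adjusted p under 0.05. Called genes lay on both sides of 0 in the tubulin list at every time, and called microtubule-associated proteins lay above 0 at 6 and 12 h.

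Of 20 genes listed around myosin VIIa only 10 were tested. The others had few counts, among them most of the hair cell proteins of the list and also CDHR2, CDHR5 and ANKS4B. USH1C and CLRN1 had no count in any library. At 6, 12, 24 and 48 h 2, 3, 2 and 3 of the 10 rose and 0, 1, 0 and 2 fell, with medians of 0.08, 0.01, 0.01 and 0.13, against 0.00, -0.05, 0.01 and 0.02 over all genes tested. The shares called were 20%, 40%, 20% and 50%, of 10 genes, against 10.6%, 17.3%, 14.4% and 25.8% of all genes tested. In 22 libraries 4, 3, 3 and 3 of 11 were higher and 0, 1, 3 and 3 lower. With the block, 4, 3, 3 and 3 of the 10 were higher and 0, 2, 1 and 2 lower. Beside these stand 23.8% to 33.6% of all genes higher and 23.4% to 30.9% lower with 22 libraries, depending on the time. With the block 20.2% to 30.6% of all genes were higher and 20.5% to 29.4% lower. WHRN, the scaffold protein whirlin of stereocilia, rose at all 4 times, by 0.58, 0.66, 0.49 and 0.90 (adjusted p = 0.00015, 2.5e-05, 0.00062 and 2.8e-07 by edgeR). At 48 h it stood at 75.9 ± 4.04 CPM in DMF, against 40.6 ± 3.95 CPM in control libraries. On log2(TPM + 1) the call of WHRN held at 48 h. KEAP1, the sensor of electrophiles that has been reported to bind myosin VIIa, rose by 0.87, 0.75, 0.50 and 0.63 (adjusted p = 0.00019, 0.00055, 0.015 and 0.0015 by edgeR). Its 24 h call was lost without any 1 of 13 libraries, with adjusted p of 0.00065 to 0.15, and on log2(TPM + 1). RAB27A, a small GTPase that with myosin VIIa moves melanosomes, was lower in DMF at 48 h, at 14.1 ± 4.03 CPM against 21.6 ± 1.29 CPM in control libraries (-0.57, adjusted p = 0.0090 by edgeR). That call was lost on log2(TPM + 1).

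The membrane skeleton list, with spectrins, ankyrins, band 4.1 proteins and actin-capping proteins, held 33 genes, 27 of them tested. At 6, 12, 24 and 48 h 2, 2, 1 and 2 rose and 0, 1, 4 and 3 fell, with medians of 0.07, -0.02, -0.15 and -0.09, against 0.00, -0.05, 0.01 and 0.02 over all genes tested. The shares called were 7.41%, 11.1%, 18.5% and 18.5%, against 10.6%, 17.3%, 14.4% and 25.8% of all genes tested. Over 22 libraries 7, 7, 6 and 7 were higher and 6, 5, 9 and 8 lower. With the block, 6, 7, 6 and 5 were higher and 5, 5, 10 and 7 lower. All genes had shares by time of 23.8% to 33.6% higher and 23.4% to 30.9% lower with 22 libraries. The block had 20.2% to 30.6% of all genes higher and 20.5% to 29.4% lower. EPB41L4B, a band 4.1-like protein, fell at 24 and 48 h by 1.03 and 1.16 (adjusted p = 7e-05 and 1.2e-05 by edgeR). At 48 h it stood at 6.85 ± 0.550 CPM in DMF, against 15.5 ± 0.504 CPM in control libraries. Both calls were lost on log2(TPM + 1). TMOD2, a tropomodulin that caps the slow-growing ends of actin filaments, was lower in DMF at 24 h, at 0.128 ± 0.0721 CPM against 0.605 ± 0.191 CPM in control libraries (-2.19, adjusted p = 0.0038 by edgeR). STOM, the membrane protein stomatin, rose at 6 and 12 h by 0.59 and 0.52 (adjusted p = 0.0042 and 0.0074 by edgeR), calls lost on log2(TPM + 1). The red cell proteins EPB42 of this list and the band 4.1 relative EPB41L3 had 0 counts in all libraries.

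The genes beside the 3 on the chromosomes were mostly not called in the fit of 24 libraries. TP53BP1, a DNA repair gene on the opposite strand whose annotated 5′ end lies 230 bases before the MAP1A locus, had log2 fold changes of -0.12, -0.19, -0.26 and 0.06 at 6, 12, 24 and 48 h (adjusted p = 0.91, 0.71, 0.62 and 0.92 by edgeR). PPIP5K1, an inositol phosphate kinase 1.84 kb after MAP1A, had -0.15, -0.29, -0.41 and -0.16 (adjusted p = 0.90, 0.59, 0.43 and 0.78). In the fit of 22 libraries TP53BP1 was lower at 12 and 24 h, by -0.25 and -0.26 (adjusted p = 0.0014 and 8.1e-05 by edgeR), and PPIP5K1 at 12, 24 and 48 h, by -0.37, -0.41 and -0.22 (adjusted p = 0.0076, 0.00023 and 0.039 by edgeR). With the block within 12 h both were lower at 12 and 24 h, TP53BP1 by -0.16 and -0.26 (adjusted p = 0.037 and 0.0011) and PPIP5K1 by -0.28 and -0.41 (adjusted p = 0.033 and 0.00095). TUBGCP4, of the complex that nucleates microtubules, 101 kb before MAP1A, was higher at 12 h by 0.47 (34.5 CPM in DMF and 25 CPM in control libraries, adjusted p = 0.037 by edgeR; 0.53 and adjusted p = 8.1e-06 with 22 libraries). That call was lost without control 12 h replicate 3 or DMF 12 h replicate 1 or 2, with adjusted p of 0.0011 to 0.23, and also with no filter on low counts, in the fit of 2 groups and on log2(TPM + 1). At 6, 24 and 48 h the values were 0.03, -0.10 and 0.09. CAPN5, a calpain protease 2.11 kb before MYO7A, was at 0.669 CPM in DMF and 0.284 CPM in control libraries at 24 h and at 2.02 CPM in DMF and 1.10 CPM in control libraries at 48 h, on the other side of its controls from MYO7A, without passing the test (1.22 and 0.96, both adjusted p = 0.058 by edgeR); it passed with 22 libraries (adjusted p = 0.0033 and 0.0011) and with the block within 12 h (adjusted p = 0.012 and 0.0045). CLNS1A, a chaperone of spliceosome assembly 300 kb after MYO7A, fell by 0.76 at 48 h (adjusted p = 1.1e-05 by edgeR), a call lost on log2(TPM + 1). At 24 h it had -0.38 (adjusted p = 0.011 by edgeR), lost without any 1 of 5 libraries and on log2(TPM + 1). Of the 6 neighbours of ADD2, FAM136A and SNRPG were tested and not called at any time in the fit of 24 libraries, with an adjusted p of 0.069 by edgeR for FAM136A at 48 h; in the fit of 22 that gene was lower at 6 and 12 h, by -0.21 and -0.18 (adjusted p = 6e-04 and 0.012), and higher at 48 h, by 0.34 (adjusted p = 3.8e-06).

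The genes whose levels followed the 3 most closely were picked by Pearson's r in log2 CPM over the 22 libraries, among 11403 genes averaging at least 1 CPM; all points share libraries, depth and groups, so r is a description with no p. For MAP1A they were CTSD, the lysosomal protease cathepsin D (r = 0.963), B4GALNT1, a ganglioside synthase (0.963), SLC16A6, of the monocarboxylate transporter family (0.959), NQO1, the quinone reductase that is a classical NRF2 target (0.955), and REEP3, which shapes the endoplasmic reticulum on microtubules (0.954). Over all 24 libraries r was 0.807, 0.965, 0.909, 0.951 and 0.928, where CTSD ranked 124, SLC16A6 12 and REEP3 10, so that of these 5 only B4GALNT1 and NQO1 were still among the closest 5 when the replicate 3 libraries of 12 h were counted. NQO1 had log2 fold changes of 2.29, 3.10, 3.59 and 4.57 at 6, 12, 24 and 48 h, beside 2.31, 3.79, 3.08 and 5.16 for MAP1A.

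The genes most like MYO7A were IRF4, a transcription factor that activated B cell-like lymphomas need (r = 0.979), EBI3, a cytokine subunit (0.972), MYOCD, myocardin, a coactivator best known from heart and smooth muscle (0.970), CPNE2, a copine (0.967), and GRAMD1B, which carries cholesterol from the plasma membrane (0.966). With all 24 libraries r was 0.740 for IRF4 and 0.924 to 0.967 for the others. IRF4 then ranked 244 and EBI3 9, while MYOCD, CPNE2 and GRAMD1B were still among the closest 5. IRF4 moved over a smaller range, with log2 fold changes of -0.06, -0.15, -0.86 and -0.92, beside -0.31, -1.67, -3.25 and -3.70 for MYO7A. Among the genes most like ADD2 were TMPRSS6, a membrane protease known from the liver (r = 0.956), IFITM2, an interferon-induced membrane protein (0.955), BAIAP2L1, which bends membranes onto actin (0.938), and NOP53, of ribosome assembly (0.937). Over all 24 libraries r was 0.865, 0.810, 0.916 and 0.446, where TMPRSS6 ranked 15, IFITM2 63 and NOP53 1395, so that of these 4 only BAIAP2L1, at rank 4, was still among the closest 5. TMPRSS6 had log2 fold changes of -0.16, -1.31, -2.41 and -4.06, beside -0.06, -0.65, -2.03 and -4.41 for ADD2.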

How the data were processed

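Total RNA of HBL-1 cells was sequenced in 24 libraries. Per the submitters' processing notes the tools were HISAT2, HISAT and RSEM on GRCh38.p12; their versions, annotation and strand setting are not given in the sources used here. Per the file headers, the authors' deposited tables hold RSEM expected counts, TPM, FPKM (not used here) and transcript lengths (other units: bases) per gene, 1 library each. Expected counts, of which 6.16% to 11.5% per library were not whole, were rounded. Groups came from the labels. edgeR 4.0.16 (R 4.3.3) fitted all 24 libraries with 8 group means, TMM scaling and its filter on low counts, with 16 residual degrees of freedom, and DMF was tested against control at each time by the quasi-likelihood test with Benjamini-Hochberg adjustment over 13419 genes (called at adjusted p under 0.05). The fit was also run on simulated counts with the same dispersion for every gene and no library that stands apart. That run therefore does not cover the replicate 3 libraries of 12 h. Poisson intervals (95%) cover counting error only.

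The members and lists were chosen with earlier results of these data known. Named were the 3 members, 5 relatives (MAP1B, MAP1S, MYO7B, ADD1, ADD3), up to 4 called genes of smallest p per list and time, 3 neighbours on each side and the 5 genes of highest r with each member (log2 CPM with a prior count of 2), 1 of which is not reported here; the text describes those calls chiefly that held without each single library. Locus coordinates are from GENCODE release 29. Promoter windows are from RefSeq (GRCh38.p14), matched for 2 of the 3 members. Alternatives were DESeq2 1.42.0, edgeR with DESeq2's size factors, no filter on low counts, limma 3.58.1 on log2(TPM + 1), a replicate block over all times or within 12 h, fits of 2 groups, and leaving out single libraries or both replicate 3 libraries of 12 h. Deviations from the group means correlated between same-numbered DMF and control libraries by 0.75 to 0.90 at 12 h. At the other times they correlated by -0.06 to 0.04. Both replicate 3 libraries of 12 h stand apart. With 3 libraries a group, a shift shared by them moves replicates 1 and 2 of both arms together the other way. The correlations at 12 h thus show what the replicate 3 libraries share and cannot show a pairing of replicates 1 and 2. The labels name no pairing.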

Additional observations from a re-analysis of the deposited data

Results flagged for a closer look

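In the lists of related genes, 2 genes were called on opposite sides of their controls at different times; the difference between the times was not tested. ANK2, ankyrin-2 of the membrane skeleton, had a log2 fold change of 0.96 at 6 h, with 6.98 ± 0.820 CPM in DMF and 3.58 ± 0.661 CPM in control libraries (SD, n = 3 each), and of -1.52 at 24 h, with 1.40 ± 0.335 CPM in DMF and 4.04 ± 0.393 CPM in control libraries. The 6 h call was lost without any 1 of 7 libraries, and the 24 h call held without each. TUBE1, ε-tubulin of centrioles, had 0.54 at 6 h, with 16.9 ± 0.546 CPM in DMF and 11.7 ± 0.699 CPM in control libraries, and -0.52 at 24 h, with 10.7 ± 0.969 CPM in DMF and 15.3 ± 0.789 CPM in control libraries; both calls were lost on log2(TPM + 1).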

How the results depend on the processing

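DESeq2, its size factors, no low-count filter and the replicate block moved each of the 12 member values by less than the spread between replicates and the 4 counts of called genes by less than 1.5 times. Over all times 14 of 24 libraries correlated best with their own number, and the replicate block called 1477, 2386, 2014 and 3561 genes at 6, 12, 24 and 48 h, against 1425, 2324, 1933 and 3465 without it. A block within 12 h, where both replicate 3 libraries deviated together, was added after seeing the data. It called 5461, 6961, 7005 and 8054 genes and ended no call of a named gene. Each member value moved by less than the spread between replicates. The 12 h libraries alone with the block gave 3115 calls, and MYO19 was then not called (adjusted p = 0.099). The common dispersion was 0.0521 over 24 libraries, 0.00379 with the block within 12 h and 0.00212 without both replicate 3 libraries of 12 h, when 6421, 6515, 7805 and 8775 genes were called. Fitting only the groups compared gave 7256, 0, 7817 and 7735; at 12 h that edgeR fit had 1109 genes at an unadjusted p under 0.05, and 1168 were called by limma on log2(TPM + 1) and 2798 by DESeq2. Limma on log2(TPM + 1) called 995, 1168, 1463 and 3448 genes, of which 26.3%, 32.2%, 63.7% and 71.8% were higher in DMF.

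On log2(TPM + 1), where the pseudocount shrinks low genes, MAP1A differed by 0.91, 1.72, 1.14 and 1.82 at 6, 12, 24 and 48 h, MYO7A by -0.74, -1.98 and -2.22 and ADD2 by -0.07, -0.50 and -1.53 at 12, 24 and 48 h. Leaving out 1 library gave 1005 to 2645, 1711 to 4344, 1282 to 3577 and 2684 to 5298 calls, each highest without control 12 h replicate 3; the lowest at 24 h was without control 24 h replicate 3, and 3823 were called at 12 h without DMF 12 h replicate 3. MAP1A then ranged over 2.22 to 2.41, 3.59 to 4.04, 2.95 to 3.13 and 4.96 to 5.60, MYO7A over -0.37 to -0.25, -1.81 to -1.58, -3.55 to -3.06 and -3.91 to -3.61, and ADD2 over -0.20 to 0.04, -0.72 to -0.55, -2.19 to -1.90 and -4.82 to -3.83. Signs turned for genes that were not called: on log2(TPM + 1) CAPN5 at 6 h 0.00, MAP1S at 6 h -0.10 and PPIP5K1 at 48 h 0.07; with 1 library left out CAPN5 at 6 h -0.31 to 0.53, MAP1S at 12 h -0.30 to 0.79, TP53BP1 at 12 h -0.53 to 0.08 and at 48 h 0.00 to 0.08, and ADD1 at 12 h -0.06 to 0.10. The cause was not tested. Depth limits ADD2 and MYO7A in DMF 48 h replicate 1, with 3 and 4 counts.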
